A study of Homo sapiens with 2 samples.

Results

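The miR-30 family was examined through 7 mature miRNAs in HepG2 cells, a human hepatocellular carcinoma line. The members were chosen by name: hsa-miR-30a-5p, hsa-miR-30b-5p, hsa-miR-30c-5p, hsa-miR-30d-5p and hsa-miR-30e-5p, which are the 5p arms of the family hairpins, and hsa-miR-30a-3p and hsa-miR-30e-3p, which are 3p arms. They were 7 of the 2549 human miRNAs on the array. A total of 15 probes, printed as 140 spots per array, measured them.

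One sample, named Ad-NC, was HepG2 cells that received an adenoviral control vector, and the other, named Ad-uc.372, was HepG2 cells that received an adenoviral vector for uc.372, a long non-coding RNA transcribed from an ultraconserved region. In both samples RNA was collected at 48 h, labelled with Cy3 and hybridised to a single-colour Agilent miRNA array. The series is titled as overexpression of uc.372, and the study's text also states that uc.372 was overexpressed for this array comparison. The sample labels name the vector without the suffix by which the study tells its overexpression from its inhibitor vectors. The study's supplementary plots of this comparison are not uniform: the axes of a scatter plot carry the inhibitor names and the columns of a heat map the overexpression names. Differences are therefore given as Ad-uc.372 minus Ad-NC, by the sample labels. No probe of these arrays (0) is named for uc.372, so the level of the transcript itself was not measured here. Each condition had 1 array, so no difference below has a replicate check or a p-value. The SD of a signal is the spread of repeated spots on 1 array. The spot SD of a difference combines the spots of both arrays. For a member with more than 1 measured probe it is that of the mean over the probes, so it is not directly comparable between members with different numbers of probes. Both kinds of SD are technical.

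A miRNA is cut from a hairpin precursor by Drosha and Dicer, and either arm of the hairpin can be loaded into Argonaute. The loaded strand finds messenger RNAs mainly through its seed, bases 2 to 8 from the 5′ end, so arms with the same seed can share targets while the opposite arm of the same hairpin has others. The miR-30 5p arms share a seed and are known for repressing genes of the epithelial-mesenchymal transition such as SNAI1. In liver, miR-30c-5p is known for repressing MTTP, which loads lipid onto lipoproteins.

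The mature sequences are shown because the probes must tell apart arms that differ by very few bases. RefSeq sequences (GRCh38.p14) matched 5 of the 7 members, and the seed is in capitals.
hsa-miR-30a-5p: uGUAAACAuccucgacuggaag
hsa-miR-30e-5p: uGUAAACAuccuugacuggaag
hsa-miR-30c-5p: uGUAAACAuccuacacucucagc
hsa-miR-30a-3p: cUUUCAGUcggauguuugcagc
hsa-miR-30e-3p: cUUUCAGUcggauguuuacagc
The 5p arms of 30a and 30e were identical at 21 of 22 bases and differed by C13U, with positions counted from 1 at the 5′ end and the 30a base given first. The 3p arms of 30a and 30e were also identical at 21 of 22 bases and differed by G18A. The 5p arm of 30c shared its first 12 bases with that of 30a, and 17 of the 22 bases compared in all. No other miRNA on the array with a sequence in the RefSeq table, which matched 2248 of the 2549, carried the seed GUAAACA or the seed UUUCAGU.

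The loci of the 5 members with a RefSeq match lie in pairs. hsa-miR-30b-5p and hsa-miR-30d-5p had no match, so their loci are not given. In GRCh38.p14, hsa-miR-30e-5p is at chr1:40754371-40754392 and hsa-miR-30e-3p at chr1:40754413-40754434, both on the plus strand. hsa-miR-30c-5p from MIR30C1 is at chr1:40757300-40757322 on the same strand, and all of these positions lie within the span of NFYC, which encodes a subunit of a CCAAT-binding transcription factor. MIR30E and MIR30C1 are 2837 bases apart. On the minus strand of chromosome 6, hsa-miR-30a-5p is at chr6:71403595-71403616, hsa-miR-30a-3p at chr6:71403554-71403575 and hsa-miR-30c-5p from MIR30C2 at chr6:71377003-71377025, within the span of no other gene of the table, with 26519 bases between the hairpins. Because both 30c hairpins give the same 5p sequence, the array cannot tell their products apart. Whether the positions in NFYC are exonic or intronic was not analysed here.

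The arrays differed in some of their general features. Spots well above background by the scanner software made up 7.65% of spots with Ad-NC and 8.48% with Ad-uc.372, the dimmest such spot had a processed signal of 21.1 and 17.3 respectively, and no spot was saturated. These values are called the detection limits below, and a miRNA is called measured on an array where at least 50% of the spots of 1 or more of its probes were well above background. By this rule 236 and 260 miRNAs were measured and 229 were measured on both arrays. Among miRNAs known from liver cells, miR-192-5p, miR-194-5p and miR-215-5p were measured on both arrays and miR-122-5p, the main miRNA of hepatocytes, on neither. miR-21-5p, which most cell types express and which marks no cell type, was measured on both. None of 10 markers of blood, stroma, endothelium and muscle was measured on either array (0 of 10).

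Of the 7 miR-30 members, 4 were measured on both arrays, and all 4 were 5p arms: 30b, 30c, 30d and 30e. hsa-miR-30e-3p was measured with Ad-uc.372 only, and both arms of 30a were measured on neither array. After scaling, the 4 measured members differed between the conditions by -0.06 to 0.36 on the log2 scale (Ad-uc.372 minus Ad-NC), with a median of 0.14. None reached the study's threshold of 1.5-fold (0 of 4), a size that 3.93% of all measured miRNAs reached (9 of 229). Each of the 4 differences was smaller than its own spot SD. The share of all measured miRNAs for which this held was not computed. The spot SD reflects the spread of single spots and is not the error of their mean. The comparison therefore does not show that the differences lie within technical error.

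**Figure D1:**
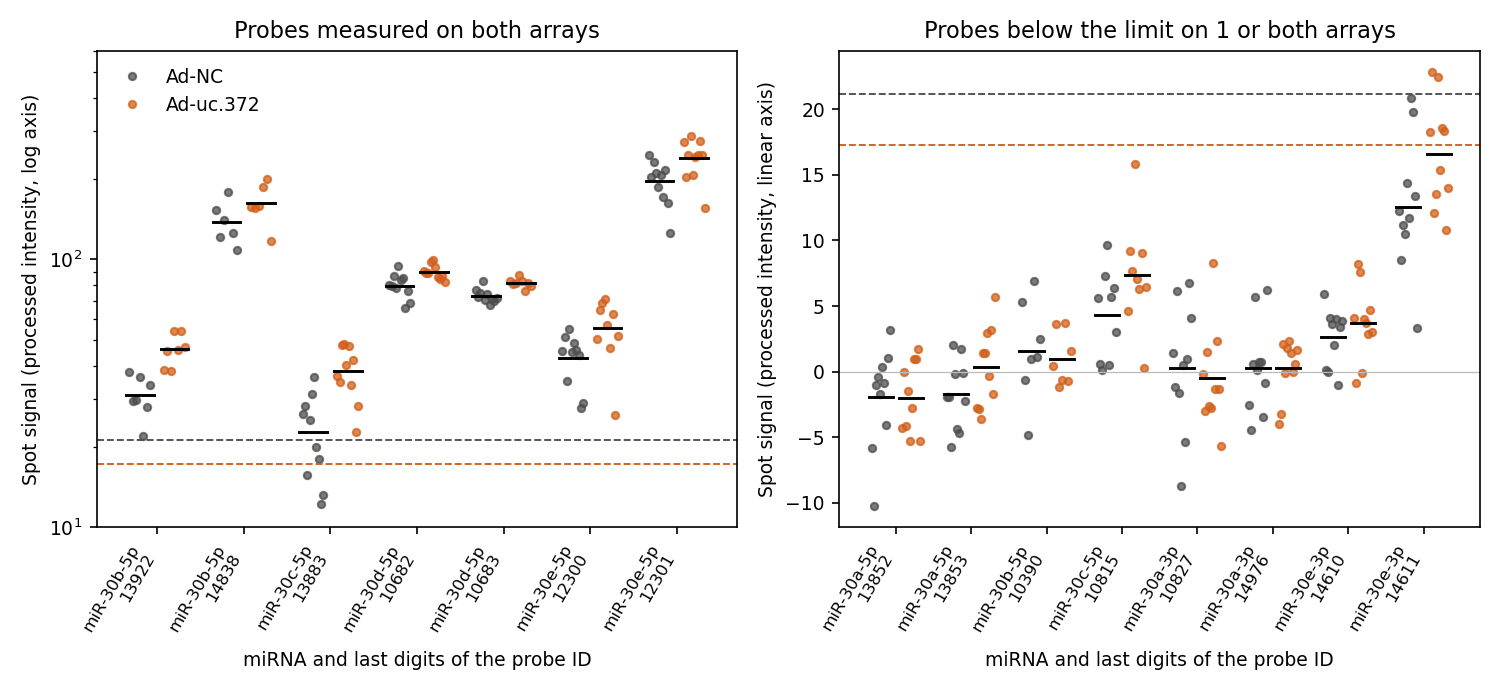
Processed signal of every spot of the 15 miR-30 probes, by probe and array, with outlier spots left out. Points are spots, bars are means and dashed lines are the detection limits (21.1 for Ad-NC, 17.3 for Ad-uc.372). The left panel (log axis) holds the 7 probes measured on both arrays, where the spots of the arrays overlap except for 1 probe of 30b. The right panel (linear axis) holds the other 8 probes, of which only 1, for hsa-miR-30e-3p, has spots above a limit.

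hsa-miR-30e-5p was measured by both of its probes. On A_25_P00012301 the 10 spots ran from 125.5 to 245.9 with Ad-NC (mean 195.6 ± 35.2 SD, median 204.3) and from 155.2 to 288.6 with Ad-uc.372 (mean 237.9 ± 40.1, median 245.1). On A_25_P00012300 the spots ran from 27.8 to 54.8 with Ad-NC (mean 42.7 ± 9.09) and from 26.3 to 70.8 with Ad-uc.372 (mean 55.4 ± 13.8, 9 spots). The Ad-uc.372 mean was the higher on both probes before scaling, by ratios of 1.22 and 1.30, and the spots of the arrays overlapped. After scaling, the levels were -1.77 and -1.67 log2 units relative to each array's reference signal, a difference of 0.10 ± 0.34 (spot SD), or 1.07-fold. The probes gave 0.06 and 0.13.

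hsa-miR-30d-5p had the smallest spot spread of the 4 measured members. On A_25_P00010682 they ran from 65.6 to 94.1 with Ad-NC (mean 79.7 ± 8.42 SD, n = 10 spots) and from 82.5 to 99.2 with Ad-uc.372 (mean 89.8 ± 5.49, n = 10 spots). On A_25_P00010683 they ran from 67.3 to 83.3 with Ad-NC (mean 73.2 ± 4.51) and from 75.9 to 87.4 with Ad-uc.372 (8 spots), where 2 of the 10 spots were outliers. The raw means were 1.13 and 1.11 times as high with Ad-uc.372, and the spot ranges overlapped on both probes. After scaling, the difference was -0.06 ± 0.10, or 1.04-fold lower with Ad-uc.372, and its probes gave -0.07 and -0.05. It was the only 1 of the 4 measured members below 0, and its direction depended on the scaling: with no scaling it was 0.17.

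hsa-miR-30b-5p was measured by 2 of its 3 probes. On A_25_P00013922 the 7 spots ran from 22.0 to 38.1 with Ad-NC and from 38.2 to 54.1 with Ad-uc.372, so that before scaling every Ad-uc.372 spot lay above every Ad-NC spot. On A_25_P00014838 the 6 spots ran from 108.5 to 178.4 (median 132.9) and from 116.8 to 199.3 (median 157.8), and these ranges overlapped. After scaling, 2 of the 7 Ad-uc.372 spots of A_25_P00013922 lay within the Ad-NC range and the probes gave differences of 0.35 and 0.01. The mean difference was 0.18 ± 0.25, or 1.13-fold. The other probe, A_25_P00010390, had means of 1.60 and 0.95, with none of its spots (0) well above background.

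hsa-miR-30c-5p had the largest difference of the family and rested on 1 probe close to the detection limit. On A_25_P00013883 the 10 spots ran from 12.2 to 36.4 with Ad-NC (mean 22.7 ± 8.15 SD, median 22.6), and 5 of them were under the limit. With Ad-uc.372 they ran from 22.7 to 48.2 (mean 38.3 ± 8.65, median 38.6), and all 10 were above it. The ratio of the raw means was 1.69, and the ranges overlapped. With the 5 dim spots set to the limit and after scaling, the difference was 0.36 ± 0.46, or 1.28-fold. With all spots scaled at their own signal, 7 of the 10 Ad-uc.372 spots lay within the Ad-NC range. With the dim spots left at their own signal the difference was 0.51. That setting also took log2 of the mean of the spots in place of the mean of log2 spots, so 0.51 is not the effect of the limit alone. Normexp background correction gave 0.01. The normexp setting adds an offset of 50 to every signal, which is more than the 30c means of 22.7 and 38.3. Such an offset shrinks the log2 differences of dim probes, so the 0.01 cannot tell whether 30c differed. Of the 15 alternatives that gave 30c a value, 14 were above 0. The other, -0.08, averaged in the second probe, whose spots all stand at the limits when no filter is applied. The second probe, A_25_P00010815, had means of 4.30 and 7.37 and, among the 9 spots used per array, none (0) well above background. On each array 1 spot was left out as an outlier, and the Ad-uc.372 outlier (17.8) was flagged well above background.

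hsa-miR-30a-5p, which differs from hsa-miR-30e-5p by the single base given above, had no spot well above background on either array (0 of 40 spots used). Its spots ran from -10.2 to 5.71 over both probes and arrays, with a median of -1.27, whereas the 39 spots of hsa-miR-30e-5p ran from 26.3 to 288.6 and all 39 were well above background. Signals of different probes do not rank the abundance of their miRNAs, so these values say only which side of the limit each arm was on. No fold is given for hsa-miR-30a-5p, since it had only a bound on both arrays. The miR-30a 5p arm is known for repressing BECN1, an autophagy gene.

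Neither 3p arm was measured on both arrays. All 40 spots of hsa-miR-30a-3p were under the limits, and they ran from -8.71 to 8.25 with a median of 0.30. For hsa-miR-30e-3p, an arm known for repressing NFKBIA in glioma cells, the probe A_25_P00014610 had no spot above a limit (0), with means of 2.61 and 3.72. On its other probe, A_25_P00014611, the 10 spots ran from 3.34 to 20.9 with Ad-NC (mean 12.6 ± 5.10 SD) and from 10.8 to 22.8 with Ad-uc.372 (mean 16.6 ± 4.14).

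With Ad-NC, 0 of these 10 spots of hsa-miR-30e-3p were well above background, and with Ad-uc.372 the count was 5 of 10. The limits differed between the arrays: 2 of the 10 Ad-NC spots were above the Ad-uc.372 limit, and 2 of the 10 Ad-uc.372 spots were above the Ad-NC limit. With the higher limit applied to both arrays, hsa-miR-30e-3p was measured on neither. Of the 10 Ad-uc.372 spots, 8 lay within the raw range of the Ad-NC spots, and no fold is given because the Ad-uc.372 level was under the lowest signal measurable with Ad-NC. The opposite arm of the same hairpin, hsa-miR-30e-5p, was well above background on every spot used.

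The total signal per miRNA of the scanner software gave the same division. It called 30b, 30c, 30d and 30e 5p detected on both arrays and hsa-miR-30e-3p with Ad-uc.372 only. hsa-miR-30b-5p had totals of 14.8 with Ad-NC and 18.3 with Ad-uc.372, hsa-miR-30c-5p 3.21 and 5.42, hsa-miR-30d-5p 21.6 and 24.2, and hsa-miR-30e-5p 33.7 and 41.5. All 4 totals were higher with Ad-uc.372 before scaling, by ratios of 1.24, 1.69, 1.12 and 1.23. The share of all miRNAs with a higher total before scaling was not computed. hsa-miR-30e-3p had a total of 2.35 with Ad-uc.372 and the fixed value for an undetected miRNA, 0.1, with Ad-NC.

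In the deposited log2 table, too, 30c had the largest difference of the 4. hsa-miR-30c-5p was 0.29 with Ad-NC and 0.72 with Ad-uc.372, a difference of 0.43. The differences of hsa-miR-30b-5p, hsa-miR-30d-5p and hsa-miR-30e-5p were -0.01, -0.16 and -0.03. The table lists hsa-miR-30e-3p at -4.71 and -0.48, a difference of 4.23, but -4.71 is the value given to each of the 2253 miRNAs undetected with Ad-NC and so is not a measured level. Both arms of 30a stand at -4.71 and -5.04, the undetected values of the respective arrays, and their difference of -0.33 is that of the array constants.

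**Figure D2:**
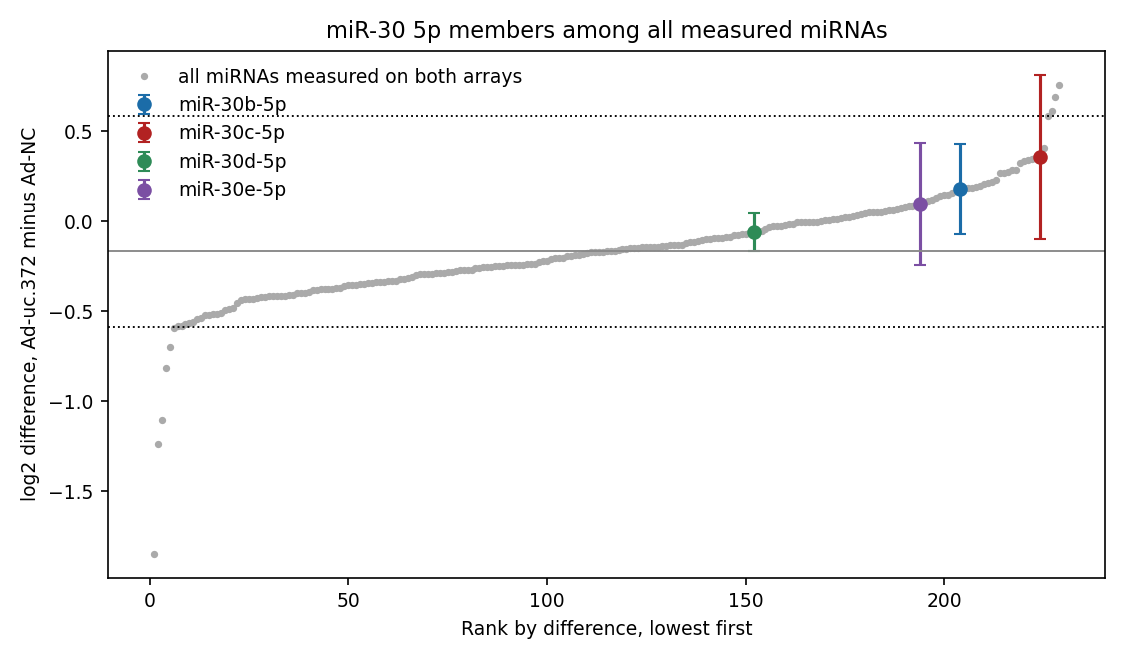
log2 difference (Ad-uc.372 minus Ad-NC, after scaling) of the 229 miRNAs measured on both arrays, ranked from lowest to highest. Grey points are miRNAs, coloured points are the 4 measured miR-30 members with their spot SD, the grey line is the median of all (-0.17) and dotted lines mark 1.5-fold. The 4 members lie above the median and inside the dotted lines.

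Over all 229 measured miRNAs the median difference was -0.17 (SD over the miRNAs 0.29), with 60 higher and 169 lower with Ad-uc.372. The median of the 4 measured members was 0.30 above it, and 86.5% of all measured miRNAs lay below 0.14, the members' median. hsa-miR-30c-5p ranked 6 from the highest of 229, hsa-miR-30b-5p 26, hsa-miR-30e-5p 36 and hsa-miR-30d-5p 78. These ranks describe a single pair of arrays. The miRNAs with differences nearest to the members' median, over the 2 arrays, were hsa-miR-21-3p (0.14), hsa-miR-25-3p (0.13) and hsa-miR-20b-5p (0.14).

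The measured members were also set against each other. Of the 6 pairs among them, none (0) differed by more than the combined spot SD of the pair. This SD, too, reflects single spots and not the error of a mean, so it does not show that the members moved alike. The widest gap was between 30c and 30d, 0.42 with a combined spot SD of 0.47, followed by 30c over 30e at 0.26 (SD 0.57) and 30b over 30d at 0.24 (SD 0.27). At the level of probes, 5 of the 7 measured were higher and 2 lower with Ad-uc.372 after scaling, whereas all 7 were higher before it. Before scaling the Ad-uc.372 array had the higher reference signal (356.5 against 304.6), and the median difference of all measured miRNAs was 0.06. The share of all probes that were higher before scaling was not computed, so the count of 7 cannot be read as a trait of the family. After scaling, the spots of the arrays overlapped on all 7 probes, so that 0 of 7 were apart, against 21.6% of all measured probes (85 of 393).

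**Figure D3:**
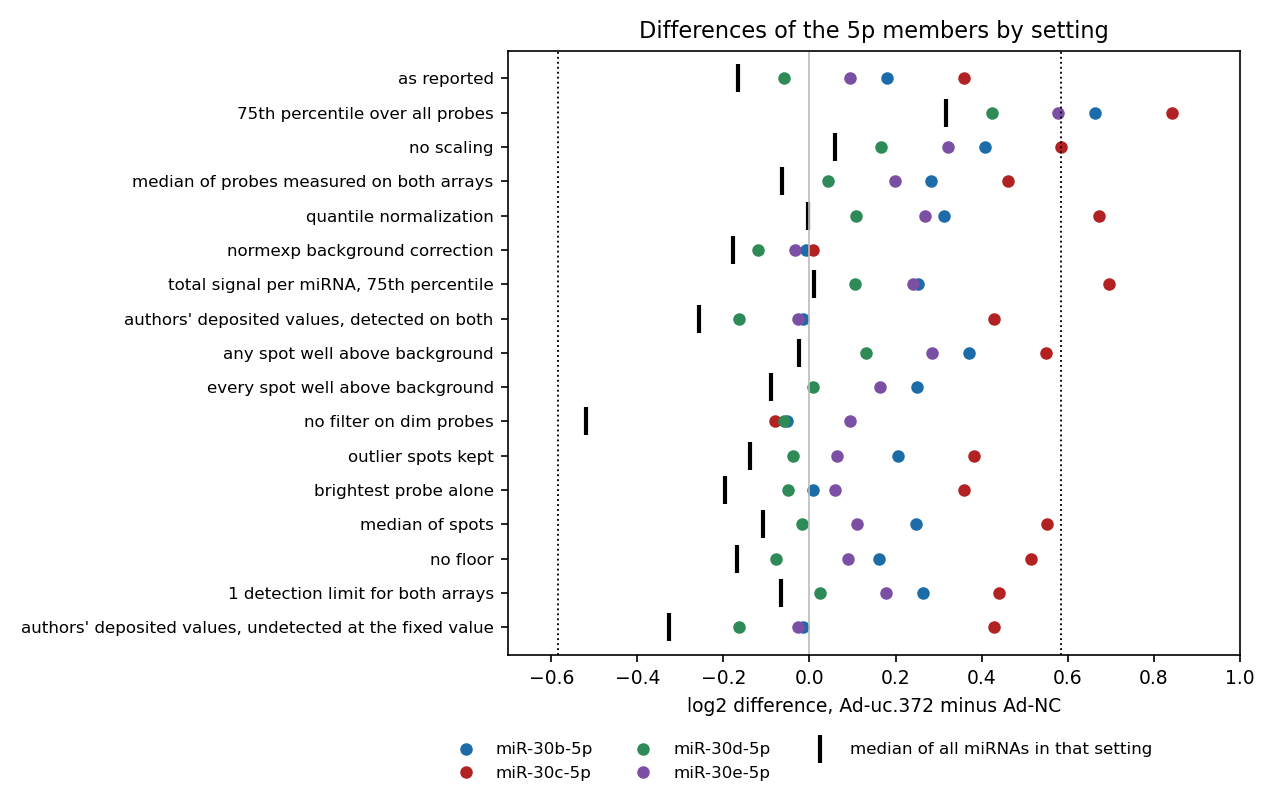
log2 difference (Ad-uc.372 minus Ad-NC) of the 4 measured miR-30 5p members under each way of processing the arrays, with the setting on the vertical axis. Coloured points are members, black bars are the median of all miRNAs in that setting and dotted lines mark 1.5-fold. All plotted members lie to the right of the black bar in every setting shown, 30d is above 0 in some settings and below it in others, and 30c passes the right-hand line in 4 settings, in which 3.93% to 16.2% of all miRNAs passed 1.5-fold.

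How far above 0 the members stood depended on how the arrays were scaled, as the plot of the differences by setting shows. The reference signal was 304.6 with Ad-NC and 356.5 with Ad-uc.372, and with no scaling the median of all measured miRNAs moved by 0.23 to 0.06 and that of the members to 0.36. With scaling to the 75th percentile over all probes, most of which were below background, the median of all was 0.32 and that of the members 0.62. Of the 16 alternatives, 3 scale all miRNAs alike and so cannot change the distance between the members' median and that of all miRNAs, and in 2 the median of all is set by undetected miRNAs. Under the other 11 the members' median was 0.16 to 0.35 above that of all miRNAs. The 0.16 came from normexp background correction, whose offset shrinks the differences of dim probes. hsa-miR-30d-5p was 0.06 to 0.16 above the median of all in these 11, while its own difference was above 0 in 5 and below 0 in 6. Among the 11, the total signal per miRNA and the deposited values detected on both arrays differ by little more than a constant per array. They are therefore not separate checks of the distance, and they gave 30d differences of 0.11 and -0.16.

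The other arms of the family hairpins printed on the array were hsa-miR-30b-3p, hsa-miR-30c-1-3p, hsa-miR-30c-2-3p and hsa-miR-30d-3p. None of the 4 was measured on either array, and their 12 probes had mean signals of -0.38 to 14.0. The software, which sums over probes, called hsa-miR-30b-3p detected on both arrays, with totals of 1.97 and 1.90, and hsa-miR-30c-1-3p with Ad-uc.372 only, at 0.81. With these included, no 3p arm of the family passed the limits on both arrays, and 4 of the 5 5p arms did.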

How the data were processed

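Total RNA of 2 HepG2 samples (Ad-NC and Ad-uc.372, 1 array each) was hybridised to the Agilent human miRNA array, release 21. The authors extracted spot intensity with Feature Extraction (10.10 per the labels, 11.5.1.1 per the file headers) and normalised with GeneSpring GX in a way not given in the sources used here. Subtracting 1 constant per array (1.39 and 1.71) from log2 of the total miRNA signal gave the deposited log2 values of 2546 and 2542 of 2549 miRNAs, within 0.001. Both arrays shared slide and scan.

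From the deposited processed intensity, spots flagged as outliers were dropped (1273 and 1657 of 50980 non-control spots), each array was scaled by the 75th percentile over probes well above background on both arrays, spots under the detection limit were set to it, and log2 spots were averaged per probe and then over the probes measured on both arrays. With 1 array per condition no test was possible, the threshold of the methods' t-test could not be applied, and precision is limited by there being 2 arrays. Other ways of scaling, background correction, filtering and summarising were computed (16 alternatives, of which 1 was chosen after seeing the data). A threshold of 2-fold in place of 1.5-fold was also applied, and 0 members passed it, which follows from 0 passing 1.5-fold. The share of all miRNAs past 2-fold was not computed. All 7 members, the other arms of the hairpins, miRNAs sharing a seed and the 3 miRNAs nearest in difference were named; a comparison with miRNAs of like brightness, also in that rule, was not made. The members and lists were chosen with earlier results of these data known. The computation was tested on simulated data. Python 3.11.15, numpy 2.4.6, pandas 2.3.3, matplotlib 3.10.9, R 4.3.3 and limma 3.58.1 (normexp, offset 50) were used.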

Additional observations from a re-analysis of the deposited data

How the results depend on the processing

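The median difference of the measured 5p members was 0.14 and ranged from -0.06 to 0.62 over 16 alternatives, above 0 in 12 and below in 4. It was -0.02 with normexp background correction, whose offset of 50 shrinks the differences of dim probes, so that value does not test its size. The median moved beyond the spot spread only when all probes set the 75th percentile, to 0.62. The number of members past 1.5-fold, 0 as reported, was 2 under that scaling, 1 without scaling, 1 with quantile normalization and 1 with total signal per miRNA, where 16.2%, 4.37%, 3.93% and 10.8% of all miRNAs passed. It was 1 with the deposited values with undetected miRNAs at their fixed value, an alternative chosen after seeing the data, which counts all 7 members as measured and passes hsa-miR-30e-3p, beside 3.49% of all. Of 63 member values under the alternatives, 53 moved by less than the spot spread and 10 by more. No difference was called, and each of the 4 members was above 0 in some alternatives and below in others. Over the alternatives hsa-miR-30b-5p ranged from -0.05 to 0.66, hsa-miR-30c-5p from -0.08 to 0.84, hsa-miR-30d-5p from -0.16 to 0.42 and hsa-miR-30e-5p from -0.03 to 0.58. With every spot required to be well above background, hsa-miR-30c-5p had no value and 3 members were measured. The 3p arms had no value as reported, and with no filter their spots stand largely at the limits, where values have no order. Signals near background limit hsa-miR-30c-5p, hsa-miR-30e-3p and both arms of 30a. No paired analysis was possible because there was a single array for either vector, and slide and scan, which the arrays share, could not serve as a block. With no filter the 5p median also takes in hsa-miR-30a-5p at the limits.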
